A study of Mus musculus with 24 samples.

Results

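The 28 genes described here are those of cholesterol synthesis and of its transcriptional control through SREBP2, chosen as a list by gene symbol. A gene was taken as measured where the array annotation paired a probe set with its symbol and no other, and the brightest such probe set stood for the gene. By that rule 26 of the 28 genes were found, among 18820 genes in all, and Acat2 and Nr1h2 had no such probe set. The 26 comprised 18 enzymes, the SREBP2 sensor genes Srebf2, Insig1, Insig2 and Scap, the sterol carrier genes Stard4, Npc1 and Tmem97, and Nr1h3, which encodes an oxysterol receptor.

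Expression was measured on 24 single-colour Affymetrix arrays, with 3 arrays in each of 8 groups formed by 4 genotypes in whole liver and in cultured primary hepatocytes. All mice were labelled as males aged 8 weeks. The controls carried the floxed NEMO alleles (NEMOf/f), the single knockouts were labelled NEMOΔhepa and KEAP1Δhepa, and the double knockout was NEMOΔhepa/KEAP1Δhepa. The knockouts came from crosses of NEMO-floxed or KEAP1-floxed mice with the Alfp-Cre transgene, whose promoter acts in hepatocytes and also in bile duct cells that share their precursor. Hepatocytes were obtained by collagenase perfusion, left overnight to attach in serum-containing medium that was then renewed, so these cells had been exposed to culture and serum. A KEAP1-floxed control without the transgene was not analysed here. The labels give each sample a mouse of its genotype without saying that the mice of a group differ, so p-values measure the spread between these samples.

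Cells make cholesterol from acetyl-CoA through mevalonate, isoprenoid diphosphates, squalene and lanosterol. When the endoplasmic reticulum holds little sterol, SCAP escorts SREBP2 to the Golgi, where proteases release the part that enters the nucleus and binds the promoters of these genes together with the CCAAT-binding factor NF-Y. When sterol is plentiful, INSIG proteins hold SCAP back, and oxysterols activate the LXR receptors, whose targets export cholesterol and promote fatty acid synthesis. The liver is a main site of this synthesis. NEMO is the regulatory subunit of the kinase that activates NF-kB, and KEAP1 directs the transcription factor NRF2 to degradation.

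Values are log2 expression throughout, so a difference of 1 is a factor of 2, and each change is given ± the standard error of the fit with 3 arrays per group. Array medians lay between 4.03 and 4.23. A change was called at an adjusted p under 0.05 over all 18820 genes, and the share of all genes past the same threshold is given beside the counts of the 26 genes. The hepatocyte markers had a list mean between 12.1 and 12.5 in every group, with 7 of the 8 listed genes measured. Of the deleted genes, Ikbkg (NEMO) lay between 6.01 and 6.60 in the NEMO and double knockout arrays of both sample types and between 6.63 and 7.20 on the others, except the array labelled liver control 3 at 6.40. Keap1 lay between 5.38 and 5.93 in the KEAP1 and double knockouts and between 5.81 and 6.62 in the other groups, which overlap, and the place of the probes relative to the deleted part was not among the sources used here.

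Of the 24 arrays, 4 went against a label or stood apart. The array labelled liver control 3 had the NRF2 target Slc7a11 at 9.29, against 2.63 and 2.42 on the other liver controls. On liver double knockout 3 Adipoq, a fat cell gene, reached 7.17 and Krt7, a keratin of bile ducts, 7.81, against at most 2.76 and 5.00 elsewhere. Female-type values, with Xist at 9.65 and 9.76 and Eif2s3y of the Y chromosome at 2.51 and 2.71, were found on control 1 and double knockout 3 of the hepatocytes, all labelled male. For each comparison the count of called genes among the 26 is given with and without these 4 arrays, and all other counts use every array unless stated.

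The promoters show what these genes share in sequence. A RefSeq promoter table of build GRCm38.p6 held 21 of the 26 genes, in 28 windows, and the 250 bases before each start were searched on both strands. The letters CCAAT, the core of the NF-Y site, were present for 19 of the 21 genes (90.5%), against 37.49% of all 27025 genes in the table, and were absent for Nr1h3 and Scap. By window the shares were 67.9% of 28 and 33.85% of 32851. The sterol regulatory element, searched as TCACNCCAC, was present for 1 gene, Hmgcs1 (4.8%, against 1.22% of all genes). A shorter form, TCACNCCA, which overlaps it and was added after that result was seen, was present for Hmgcs1, Msmo1 and Srebf2 (14.3%, against 4.2%). The NRF2 element, searched as TGACNNNGC, was present for Dhcr7, Mvk and Pmvk (14.3%, against 11.52%). These shares are descriptions, and a match is not a bound site. Fdps, Sqle, Fdft1, Stard4 and Npc1 had no entry in the table.

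The windows of the 3 genes with the shorter element are printed below, with that of Idi1. Of the 26 genes, Idi1 had the smallest adjusted p in KEAP1 knockout hepatocytes. Capitals mark matches to TCACNCCA and to CCAAT, and ATTGG is CCAAT on the opposite strand. Hmgcs1 encodes HMG-CoA synthase and its window is chr13:119690101-119690350, plus strand. Srebf2 encodes SREBP2 itself (chr15:82147019-82147268, plus strand). Msmo1 encodes a methylsterol oxidase (chr8:64733579-64733828, minus strand). Idi1 encodes the isomerase of isopentenyl diphosphate (chr13:8885356-8885605, plus strand).
Hmgcs1: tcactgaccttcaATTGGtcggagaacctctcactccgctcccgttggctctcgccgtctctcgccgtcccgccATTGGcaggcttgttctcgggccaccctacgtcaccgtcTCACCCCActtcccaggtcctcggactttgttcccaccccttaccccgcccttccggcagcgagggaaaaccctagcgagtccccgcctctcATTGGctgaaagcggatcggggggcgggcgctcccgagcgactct
Srebf2: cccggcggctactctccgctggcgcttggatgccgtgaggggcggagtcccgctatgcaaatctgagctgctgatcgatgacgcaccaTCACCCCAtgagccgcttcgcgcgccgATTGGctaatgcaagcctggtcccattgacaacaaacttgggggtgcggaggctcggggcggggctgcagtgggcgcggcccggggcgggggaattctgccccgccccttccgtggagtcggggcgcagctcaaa
Msmo1: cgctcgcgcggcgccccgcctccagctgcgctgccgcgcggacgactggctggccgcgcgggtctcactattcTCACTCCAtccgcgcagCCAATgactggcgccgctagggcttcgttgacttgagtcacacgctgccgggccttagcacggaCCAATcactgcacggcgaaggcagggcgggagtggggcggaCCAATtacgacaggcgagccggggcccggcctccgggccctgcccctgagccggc
Idi1: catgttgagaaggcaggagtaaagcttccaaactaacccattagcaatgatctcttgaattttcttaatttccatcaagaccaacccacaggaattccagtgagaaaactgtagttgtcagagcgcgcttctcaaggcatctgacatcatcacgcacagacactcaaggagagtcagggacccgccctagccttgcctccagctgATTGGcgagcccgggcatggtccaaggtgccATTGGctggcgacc
The element of Hmgcs1 lay 137 bases before the start, that of Srebf2 162 bases and that of Msmo1 177 bases. Idi1 has CCAAT in reverse 45 and 14 bases before the start.

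In cultured hepatocytes between 5 and 8 of the 26 genes were lower in each knockout than in the controls, and none was called higher. NEMO knockout hepatocytes had 5 of 26 genes lower and 0 higher, while 6.65% of all genes were called and 2.05% were called lower. KEAP1 knockout hepatocytes had 6 lower and 0 higher (1.87% of all genes called, 0.425% lower). Double knockout hepatocytes had 8 lower and 0 higher (9.72% of all genes called, 2.99% lower). The median change over the 26 genes was -0.26, -0.56 and -0.53 in that order, against medians of -0.02, -0.003 and -0.03 over all genes, and 21, 23 and 23 of the 26 changes were below 0. The 3 comparisons use the same 3 control arrays. Without the arrays in doubt the counts were 5, 4 and 5 lower and 0 higher, with 5.58%, 1.82% and 9.23% of all genes called.

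The mean of the 18 enzymes, each taken as its deviation from its own mean over 24 arrays, shows how the arrays lie. It was 0.43, 0.44 and 0.10 on hepatocyte controls 1 to 3. It was 0.18, 0.05 and -0.20 on the NEMO knockouts, -0.06, -0.26 and -0.34 on the KEAP1 knockouts, and -0.08, -0.05 and -0.34 on the double knockouts. Hepatocyte control 3 lay below the other controls and below NEMO knockout 1, so these groups overlap, while the KEAP1 and double knockouts lay below all controls. Hepatocyte control 1, which is in doubt, was at the level of control 2.

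**Figure D1:**
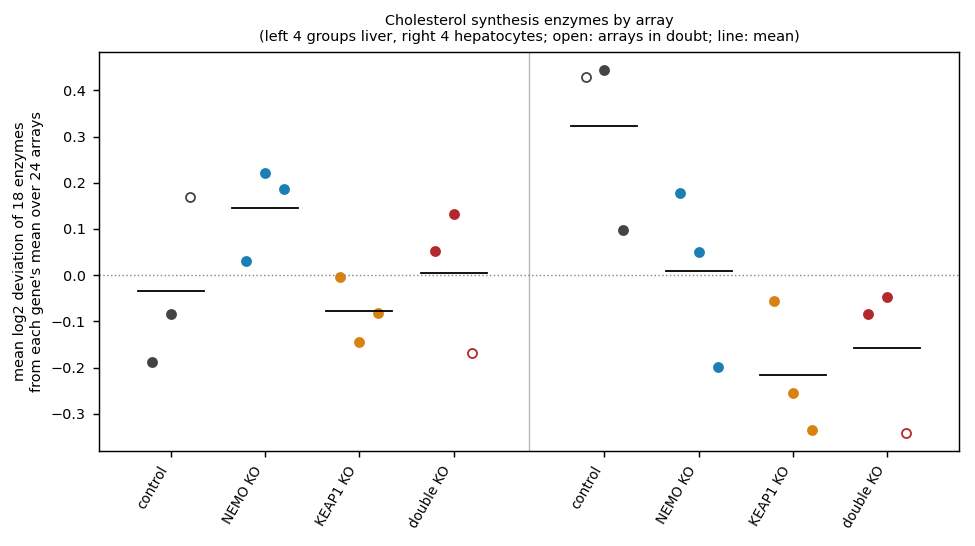
Mean log2 deviation of the 18 measured cholesterol synthesis enzymes on each array (vertical axis) for the 8 groups (horizontal axis), with points for arrays, open points for the 4 arrays in doubt and lines for group means. The hepatocyte controls reach 0.44 while the KEAP1 and double knockout hepatocytes all lie below 0. Each liver knockout group overlaps the liver controls, and the NEMO knockout livers lie above the KEAP1 knockout livers.

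Srebf2, the gene of SREBP2, was at 7.95, 7.79 and 7.59 on hepatocyte controls 1 to 3. It was at 7.63, 7.25 and 7.24 on the NEMO knockouts, at 7.14, 7.08 and 7.12 on the KEAP1 knockouts and at 7.08, 7.32 and 7.35 on the double knockouts. The KEAP1 and double knockouts lay below every control, and NEMO knockout 1 lay above control 3. Srebf2 fell by 0.66 ± 0.13 in the KEAP1 knockout (adjusted p = 0.0188) and by 0.53 ± 0.13 in the double knockout (adjusted p = 0.0173). In the NEMO knockout the change was -0.40 ± 0.13 (adjusted p = 0.0816). Without the arrays in doubt Srebf2 was not called in any comparison.

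Insig1, which encodes a sterol-dependent anchor of SCAP and is itself an SREBP target, was at 11.37, 11.48 and 10.72 on the hepatocyte controls. It was at 11.41, 10.78 and 10.32 on the NEMO knockouts, 10.71, 10.35 and 10.53 on the KEAP1 knockouts and 10.68, 10.44 and 9.90 on the double knockouts. Both groups without KEAP1 lay below all controls, but control 3 was far below the other controls and no change was called (-0.85 ± 0.27 in the double knockout, adjusted p = 0.0646). Insig2, the second such anchor, was at 10.42, 10.15 and 10.80 on the controls, 10.87, 11.23 and 10.93 on the NEMO knockouts, 10.82, 10.57 and 10.45 on the KEAP1 knockouts and 10.63, 10.97 and 10.87 on the double knockouts. All 3 NEMO knockout arrays lay above the controls, by 0.55 ± 0.16 (adjusted p = 0.0537), the opposite sign to Insig1 at -0.35 ± 0.27. Scap, the escort, fell by 0.54 ± 0.11 in the double knockout (adjusted p = 0.0079), from 9.08, 8.75 and 8.99 to 8.29, 8.34 and 8.58.

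**Figure D2:**
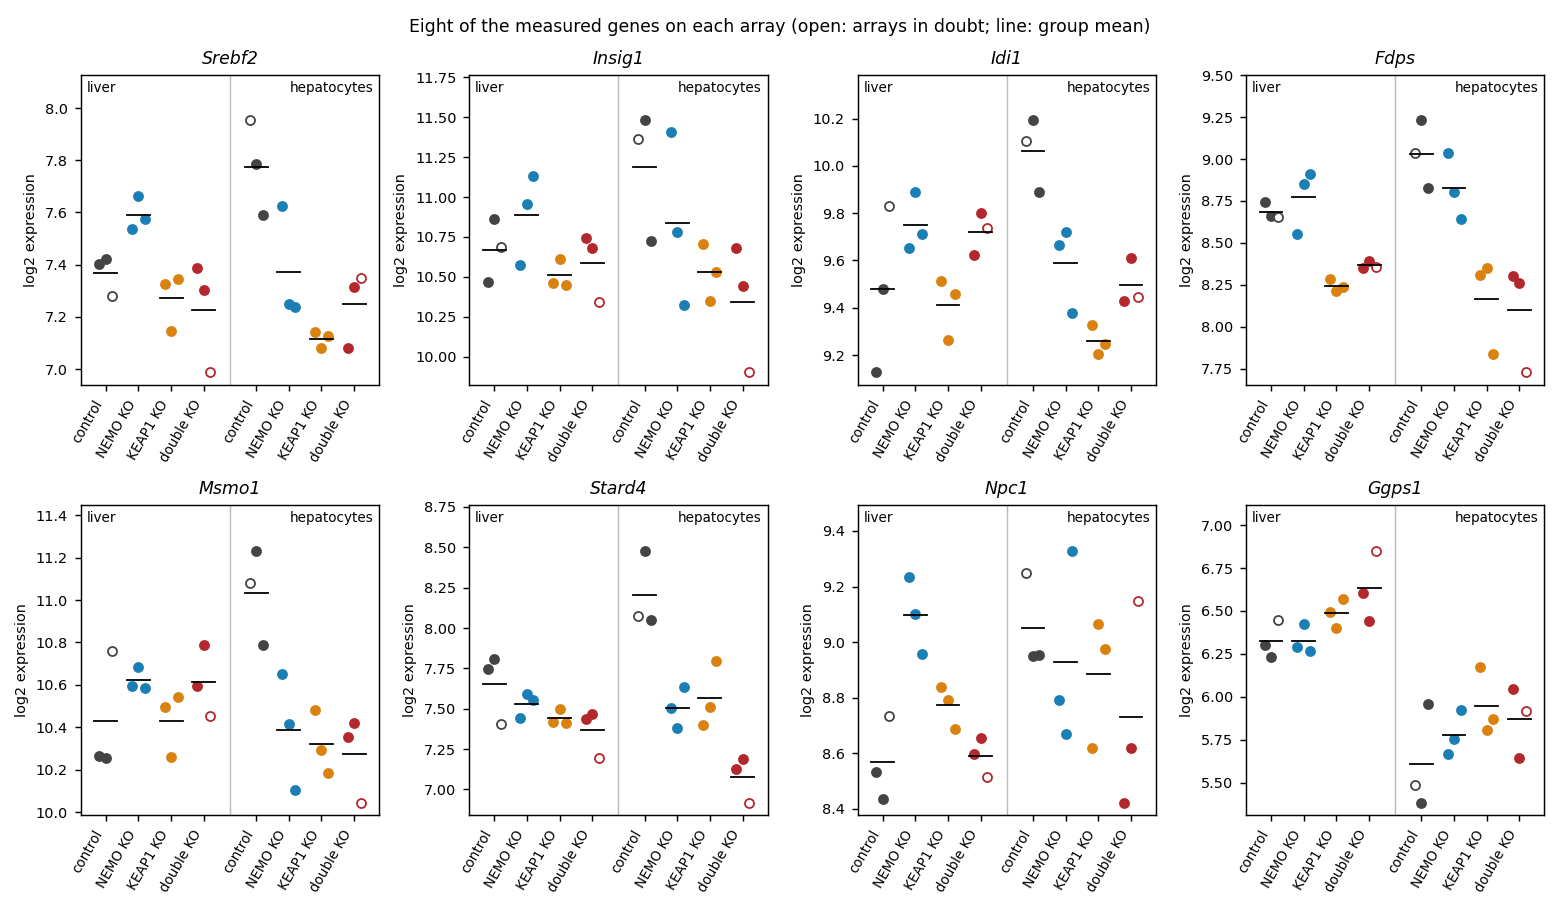
Log2 expression (vertical axes) of 8 genes on each array of the 8 groups (horizontal axes), with open points for the 4 arrays in doubt and lines for group means. Srebf2, Idi1, Fdps, Msmo1 and Stard4 are highest in control hepatocytes, Npc1 is highest among livers in the NEMO knockout, and Ggps1 is lower in hepatocytes than in liver.

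Among the first steps, to mevalonate and its phosphates, Mvk (mevalonate kinase) was at 7.17, 7.24 and 6.77 on the hepatocyte controls. It was at 6.48, 6.40 and 6.38 on the NEMO knockouts, 6.54, 6.45 and 6.47 on the KEAP1 knockouts and 6.43, 6.82 and 6.18 on the double knockouts. Double knockout 2 was the only knockout array above any control. Mvk fell by 0.64 ± 0.16 in the NEMO knockout (adjusted p = 0.0254) and by 0.58 ± 0.16 in the double knockout (adjusted p = 0.0324), with -0.57 ± 0.16 in the KEAP1 knockout (adjusted p = 0.0901). Hmgcs1, which makes HMG-CoA, had changes of -0.29, -0.84 and -0.52 in the NEMO, KEAP1 and double knockouts, none called, with SE 0.23. Its control 3 lay at 10.39, below control 1 at 11.03. Mvd, the decarboxylase that makes isopentenyl diphosphate, had changes of -0.99, -0.99 and -1.08, among the largest of the 26, but with SE 0.34 and controls at 7.09, 7.32 and 6.16 none was called. Pmvk, the second kinase, was at -0.10, -0.70 and -0.66, none called.

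Of the isoprenoid steps, Idi1 was called in all 3 comparisons. It was at 10.10, 10.19 and 9.89 on the hepatocyte controls, 9.66, 9.72 and 9.38 on the NEMO knockouts, 9.33, 9.21 and 9.25 on the KEAP1 knockouts and 9.43, 9.61 and 9.45 on the double knockouts. All 9 knockout arrays lay below all 3 controls. Idi1 fell by 0.48 ± 0.10 in the NEMO knockout (adjusted p = 0.0142), by 0.80 ± 0.10 in the KEAP1 knockout (1.74-fold, adjusted p = 0.0014) and by 0.57 ± 0.10 in the double knockout (adjusted p = 0.00331), and each call held without the arrays in doubt. The NEMO knockout call was lost in limma without control 2 (adjusted p = 0.0513) or without NEMO knockout 3 (adjusted p = 0.0562). A further probe set of Idi1 had group means of 10.05, 9.52 and 9.23 in the control, NEMO and KEAP1 groups, close to the 10.06, 9.59 and 9.26 of the one used. The annotation pairs both with Idi1, but whether the probe set used lies at the gene itself or at a near-identical copy was not settled by the sources used here.

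Fdps, which joins isoprenoid units to farnesyl diphosphate, was at 9.04, 9.23 and 8.83 on the hepatocyte controls and at 9.03, 8.80 and 8.64 on the NEMO knockouts. It was at 8.31, 8.35 and 7.84 on the KEAP1 knockouts and at 8.30, 8.26 and 7.73 on the double knockouts. The groups without KEAP1 lay below every other hepatocyte array. Fdps fell by 0.87 ± 0.18 in the KEAP1 knockout (adjusted p = 0.0262) and by 0.94 ± 0.18 in the double knockout (1.91-fold, adjusted p = 0.00398), with -0.21 ± 0.18 in the NEMO knockout (adjusted p = 0.586). Ggps1, the enzyme of the branch to geranylgeranyl diphosphate, was above 0 in each comparison (0.17, 0.34 and 0.26, SE 0.17, none called).

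Of the squalene and lanosterol enzymes none was called in hepatocytes against control, and all had changes below 0. Sqle (squalene epoxidase) was at 9.08, 9.42 and 8.79 on the controls, 8.81, 8.47 and 7.87 on the NEMO knockouts, 8.28, 8.41 and 8.07 on the KEAP1 knockouts and 8.57, 8.49 and 7.98 on the double knockouts. Its changes were -0.71, -0.84 and -0.75 ± 0.23, with adjusted p between 0.0548 and 0.0849. Fdft1 (squalene synthase) changed by -0.45, -0.71 and -0.56 and Lss (lanosterol synthase) by -0.33, -0.73 and -0.72. For all 3 enzymes, control 3 was the lowest control.

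From lanosterol to cholesterol, Msmo1 was called in each comparison. It was at 11.08, 11.23 and 10.79 on the hepatocyte controls, 10.65, 10.41 and 10.10 on the NEMO knockouts, 10.48, 10.29 and 10.18 on the KEAP1 knockouts and 10.35, 10.42 and 10.04 on the double knockouts. Every knockout array lay below every control. Msmo1 fell by 0.65 ± 0.15 (adjusted p = 0.0197), 0.72 ± 0.15 (adjusted p = 0.031) and 0.76 ± 0.15 (adjusted p = 0.0053) in the NEMO, KEAP1 and double knockouts.

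Cyp51, the lanosterol demethylase, was at 9.90, 9.82 and 9.61 on the controls, 9.40, 9.62 and 9.42 on the NEMO knockouts, 9.28, 9.43 and 9.22 on the KEAP1 knockouts and 9.58, 9.78 and 9.52 on the double knockouts. It fell by 0.47 ± 0.10 in the KEAP1 knockout (adjusted p = 0.0385), with -0.29 ± 0.10 in the NEMO knockout (adjusted p = 0.123) and -0.15 ± 0.10 in the double knockout (adjusted p = 0.451), whose difference from the KEAP1 knockout was 0.32 ± 0.10 (adjusted p = 0.142). Hsd17b7, a sterol ketoreductase, was at 9.63, 9.85 and 9.44 on the controls, 9.36, 8.99 and 8.99 on the NEMO knockouts, 9.222, 9.047 and 9.002 on the KEAP1 knockouts and 9.23, 9.18 and 9.54 on the double knockouts. It fell by 0.53 ± 0.14 in the NEMO knockout (adjusted p = 0.0326). Its group means were 9.642 in the controls and 9.115, 9.09 and 9.317 in the NEMO, KEAP1 and double knockouts. The KEAP1 knockout was thus as low as the NEMO knockout, without being called, and the double knockout was not called either. Sc5d, a sterol desaturase, fell by 0.58 ± 0.12 in the double knockout (adjusted p = 0.00863), from 11.48, 11.50 and 11.08 to 10.92, 10.75 and 10.66. The other enzymes of this stretch, Tm7sf2, Nsdhl, Ebp and Dhcr7, had no called change, with values between -0.48 and 0.14.

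Among the sterol carriers, Stard4, a cytosolic cholesterol transfer protein, had the largest called change. It was at 8.07, 8.48 and 8.05 on the hepatocyte controls, 7.51, 7.38 and 7.63 on the NEMO knockouts, 7.40, 7.51 and 7.79 on the KEAP1 knockouts and 7.12, 7.19 and 6.92 on the double knockouts. The double knockout arrays lay below every other hepatocyte array, and both single knockouts lay below the controls. Stard4 fell by 0.70 ± 0.14 in the NEMO knockout (adjusted p = 0.0075), 0.64 ± 0.14 in the KEAP1 knockout (adjusted p = 0.0367) and 1.13 ± 0.14 in the double knockout (2.18-fold, adjusted p = 0.000184). Npc1, which moves cholesterol out of lysosomes, Tmem97, a membrane protein that binds NPC1, and the oxysterol receptor gene Nr1h3 had no called change, with values between -0.32 and 0.19. Whether the probe set used for Tmem97 lies at that gene was not settled either, and a dimmer one differed in sign from it in the NEMO knockout (-0.09 against 0.19), so the direction of Tmem97 is uncertain in hepatocytes.

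**Figure D3:**
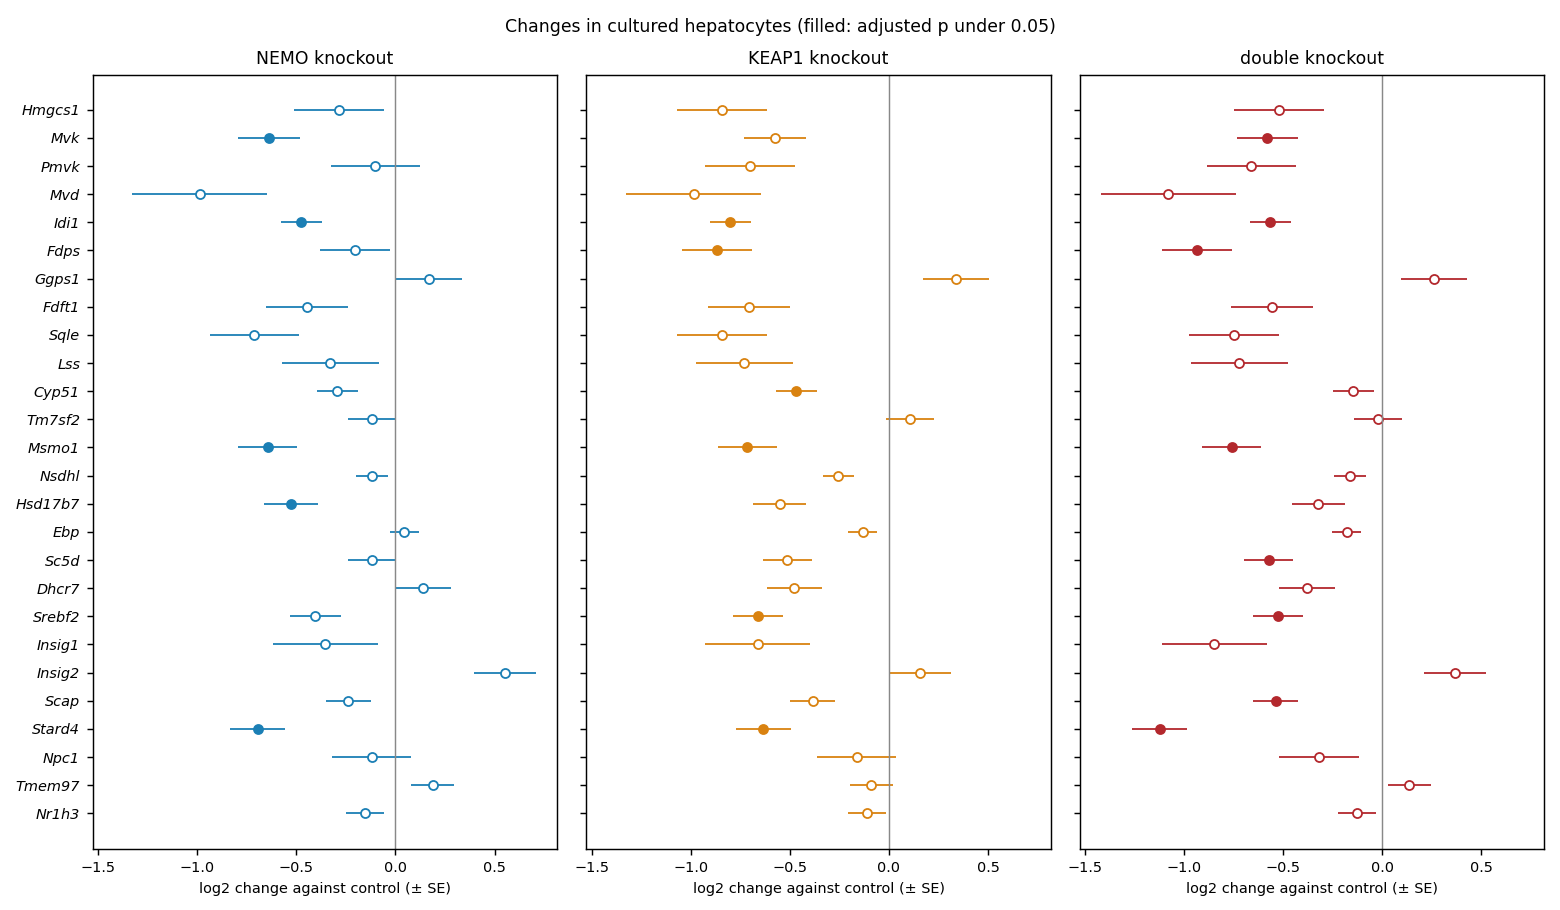
Log2 change against control with its standard error (horizontal axes) of the 26 genes (vertical axis, in pathway order) in NEMO, KEAP1 and double knockout hepatocytes, with filled points where the adjusted p was under 0.05. Of the changes, 21, 23 and 23 lie below 0, and 5, 6 and 8 are filled, all of them lower.

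Without overlap, in the sense that all 3 knockout arrays lay below all 3 controls, 5 of 26 genes were lower in the NEMO knockout (19.2%, against 11.8% of all genes). There were 17 in the KEAP1 knockout (65.4%, against 9.21%) and 12 in the double knockout (46.2%, against 12.5%). The KEAP1 knockout thus had more genes clear of the controls than called, and among them were Hmgcs1, Pmvk, Fdft1, Sqle, Hsd17b7 and Sc5d. The calls depended on single arrays. In the NEMO knockout, leaving out control 1, 2 or 3 gave 2, 1 and 7 called genes, and leaving out NEMO knockout 1, 2 or 3 gave 7, 2 and 1, with Stard4 called each time and 4.29% to 6.35% of all genes called. In the KEAP1 knockout the counts were 2, 2 and 12 without controls 1, 2 and 3 and 1, 1 and 2 without knockouts 1, 2 and 3, with Idi1 called each time and 0.654% to 2.15% of all genes called. In the double knockout they were 6, 7, 14, 6, 8 and 7 in the same order, with 5.54% to 10.3% of all genes called, and Stard4, Fdps, Msmo1, Sc5d, Idi1 and Scap were called each time. Srebf2 was not called there without control 1 (adjusted p = 0.0684) or the double knockout array of that number (adjusted p = 0.0768), nor was Mvk without any of controls 1 and 2 or knockouts 1 and 3 (adjusted p = 0.0959, 0.121, 0.0933 and 0.104). With the replicate number as a block the 3 counts were 7, 13 and 16, with 6.9%, 1.96% and 9.78% of all genes called.

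Non-parenchymal cell markers also differed between the hepatocyte groups, though not in the same order as the changes above. The macrophage list (7 of 7 genes measured, among them Adgre1, Clec4f and Csf1r) had a mean of 5.6 to 6.6 on the hepatocyte controls, 7.6 to 8.1 on the NEMO knockouts, 6.4 to 7.3 on the KEAP1 knockouts and 8.0 to 8.6 on the double knockouts. The endothelial list (5 of 5) was at 5.4 to 6.3 on the controls and 6.9 to 7.8 on the knockouts, with 5 of 5 genes called higher in each comparison. Macrophage genes were called higher for 7, 1 and 7 of 7 and stellate cell genes for 6, 1 and 6 of 7 in the NEMO, KEAP1 and double knockouts. The share of all genes called was 6.65%, 1.87% and 9.72% in that order. The proliferation list (3 of 4 genes measured) was at 3.5 to 4.0 on the controls, 3.9 to 4.3 on the KEAP1 knockouts and 5.6 to 7.3 on the arrays without NEMO. The hepatocyte list lay between 12.3 and 12.5 in all 4 hepatocyte groups. The part of these cells in the changes above was not tested, and fewer hepatocytes and less RNA per hepatocyte cannot be told apart in such samples.

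Other genes of lipid synthesis and sterol handling were counted from lists. Of 13 genes of acetyl-CoA supply and fatty acid synthesis that SREBP factors also drive, 1, 4 and 7 were lower in the NEMO, KEAP1 and double knockout hepatocytes and 0 were higher, with medians of -0.14, -0.61 and -0.73. The share of all genes called lower was 2.05%, 0.425% and 2.99% in the same order. Fads1, a fatty acid desaturase, fell by 1.06 ± 0.19 in the KEAP1 knockout (adjusted p = 0.0138) and by 1.11 ± 0.19 in the double knockout (adjusted p = 0.00225), and the elongase Elovl5 fell by 0.85 ± 0.12 in the KEAP1 knockout (adjusted p = 0.00213). In the double knockout Aacs, which activates acetoacetate, fell by 1.72 ± 0.47 (adjusted p = 0.0346) and Fasn, the fatty acid synthase, by 1.23 ± 0.35 (adjusted p = 0.0406). In the NEMO knockout the called gene was Me1, malic enzyme, at -0.40 ± 0.11 (adjusted p = 0.0434). Without the arrays in doubt 0, 4 and 3 of the 13 were lower, with 5.58%, 1.82% and 9.23% of all genes called. The SREBP processing list had 1 of 7 genes called, Srebf1, the gene of SREBP1, which fell by 1.22 ± 0.27 in the double knockout (adjusted p = 0.0121), a call not made without the arrays in doubt. Of the isoprenoid branch list 0 of 9 genes were called in each hepatocyte comparison against control.

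Genes listed as LXR targets moved both ways. The list as chosen also named Nr1h4, which encodes the bile acid receptor. It shared Srebf1 with the SREBP processing list, so the fall of Srebf1 in the double knockout is counted in both. Of 8 measured, 3 were higher and 1 lower in the NEMO knockout, 2 higher in the KEAP1 knockout, and 3 higher and 2 lower in the double knockout. The share of all genes called was 6.65%, 1.87% and 9.72% in the same order. Mylip, a ubiquitin ligase for lipoprotein receptors, rose by 1.32 ± 0.20, 1.29 ± 0.20 and 1.80 ± 0.20 (adjusted p = 0.00113, 0.00405 and 7.82e-05), and Lpl, lipoprotein lipase, by 1.60 ± 0.31, 1.41 ± 0.31 and 3.33 ± 0.31 (adjusted p = 0.0065, 0.0385 and 2.4e-05). Abcg1, a cholesterol exporter, rose by 1.28 ± 0.20 in the NEMO knockout (adjusted p = 0.00139) and by 1.87 ± 0.20 in the double knockout (adjusted p = 6.37e-05). Abcg8, a canalicular sterol exporter of hepatocytes, fell by 1.14 ± 0.29 in the NEMO knockout (adjusted p = 0.0309). Macrophages also express Lpl and Abcg1, and the macrophage markers differed between these groups as given above, a part that was not tested. Among cholesterol ester and carrier genes, Osbpl3, an oxysterol-binding protein relative, rose by 3.59 ± 0.21 in the KEAP1 knockout (adjusted p = 1.17e-06) and 3.36 ± 0.21 in the double knockout (adjusted p = 1.19e-06). In the double knockout 4 of the 12 were higher (9.72% of all genes called), the others being Gramd1b, Lipa and Npc2.

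The double knockout was then set against each single knockout. Against the NEMO knockout 1 of 26 genes was called, Fdps, which fell by 0.73 ± 0.18 (adjusted p = 0.0416, with 3.32% of all genes called). The call was lost without each of the 6 arrays in turn (adjusted p between 0.0504 and 0.147), and 0 genes were called without the arrays in doubt (3.8% of all genes). Dhcr7, the last reductase of the pathway, was at -0.52 ± 0.14 (adjusted p = 0.0613) and Sc5d at -0.46 ± 0.12 (adjusted p = 0.0618). Against the KEAP1 knockout 0 genes were called with limma (2.75% of all genes, and 3.78% without the arrays in doubt, again with 0 genes). At an unadjusted p under 0.05, 2 were higher and 1 lower, 11.5% of the 26 against 14.8% of all genes. Stard4 had the smallest p there, at -0.49 ± 0.14 (adjusted p = 0.0874).

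The interaction, which asks whether the double knockout departs from the sum of both single changes, was called for 0 of 26 genes in hepatocytes (0.0425% of all genes). It stayed at 0 without the arrays in doubt (0.117%). At an unadjusted p under 0.05, 7 genes had an interaction above 0 and 0 below (26.9%, against 9.93% of all genes). The same hepatocyte controls enter this term and the changes against control. Idi1 was at 0.71 ± 0.15 (adjusted p = 0.113), Hsd17b7 at 0.75 ± 0.19 (adjusted p = 0.191) and Cyp51 at 0.61 ± 0.15 (adjusted p = 0.165), so their double knockout values lay above the sum of both single changes without passing the test.

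Control hepatocytes were then compared with control liver, the reference levels of both sample types. Of 26 genes, 6 were higher in culture and 1 lower (5.13% of all genes called, 1.29% higher), with a median difference of 0.43 against 0.02 over all genes. Sqle rose by 0.69 ± 0.20 (adjusted p = 0.0424), Msmo1 by 0.61 ± 0.15 (adjusted p = 0.0206), Idi1 by 0.58 ± 0.13 (adjusted p = 0.0101), Hsd17b7 by 0.56 ± 0.15 (adjusted p = 0.0327), Stard4 by 0.55 ± 0.13 (adjusted p = 0.0138) and Cyp51 by 0.45 ± 0.12 (adjusted p = 0.026). Ggps1 fell by 0.72 ± 0.15 (adjusted p = 0.00392), from 6.30, 6.23 and 6.45 in liver to 5.49, 5.38 and 5.96 in hepatocytes, and was called without each array in turn. All 3 hepatocyte controls lay above all 3 liver controls for 8 of 26 genes (30.8%, against 8.91% of all genes). These hepatocyte controls are also the reference of the hepatocyte knockout changes above, so the results are not independent.

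These calls also depended on the controls. Without the arrays in doubt 7 genes were higher (Idi1, Cyp51, Msmo1, Nsdhl, Hsd17b7, Mvk and Fdft1) and 0 lower, with 3.06% of all genes called. Leaving out hepatocyte controls 1, 2 and 3 gave 3, 1 and 11 called genes, and leaving out liver controls 1, 2 and 3 gave 2, 3 and 9, with 3.39% to 5.12% of all genes called. A fit with only these 6 arrays called 0 (1.59% of all genes), and one with the replicate block called 11 (6.63%). The 7 macrophage and 5 endothelial markers were all lower in culture, and their part in the difference was not tested.

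In whole liver few of the genes were called with all arrays. NEMO knockout liver had 1 higher and 0 lower (1.33% of all genes), KEAP1 knockout liver 0 (0% of all genes) and double knockout liver 0 (0.00531%). At an unadjusted p under 0.05 the liver comparisons gave 5 higher and 1 lower, 0 higher and 2 lower, and 1 higher and 5 lower in that order. These were 23.1%, 7.69% and 23.1% of the 26 genes, near the 18%, 7.69% and 20.7% of all genes. The called gene was Npc1, at 8.53, 8.44 and 8.73 on the controls and 9.24, 9.10 and 8.96 on the NEMO knockouts, groups that did not overlap. It was at 8.84, 8.79 and 8.69 on the KEAP1 knockouts and 8.60, 8.65 and 8.52 on the double knockouts. Npc1 rose by 0.53 ± 0.10 in the NEMO knockout (adjusted p = 0.0293), and Tmem97 was at 0.39 ± 0.12 (adjusted p = 0.116) and Fdft1 at 0.46 ± 0.15 (adjusted p = 0.13).

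Against the NEMO knockout, the double knockout liver had 1 gene lower, Npc1 again, which fell by 0.51 ± 0.10 (adjusted p = 0.038, with 1.05% of all genes called) and by 0.47 ± 0.10 without the arrays in doubt (adjusted p = 0.02, 3.46% of all genes). With 1 array left out the adjusted p of this difference was between 0.0792 and 0.13. Fdps was at -0.41 ± 0.10 (adjusted p = 0.07) and Sc5d at -0.55 ± 0.14 (adjusted p = 0.0886). Against the KEAP1 knockout 0 genes were called (0% of all genes, and 0.0531% without the arrays in doubt, again with 0 of the 26), and 1 was higher and 0 lower at an unadjusted p under 0.05 (3.85%, against 7.59% of all genes). The interaction was called for 0 genes (0.0106% of all genes), with 0 above 0 and 2 below at an unadjusted p under 0.05 (7.69%, against 5.06% of all genes), and without the arrays in doubt for 1, Npc1 at -0.76 ± 0.14 (adjusted p = 0.0451, 0.345% of all genes).

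Idi1, Msmo1 and Stard4 were called in each hepatocyte comparison against control. In liver every knockout group overlapped the controls for these genes. Idi1 was at 9.13, 9.48 and 9.83 on the liver controls, 9.65, 9.89 and 9.71 on the NEMO knockouts, 9.51, 9.26 and 9.46 on the KEAP1 knockouts and 9.62, 9.80 and 9.74 on the double knockouts. Msmo1 was at 10.27, 10.26 and 10.76 on the controls, 10.60, 10.68 and 10.59 on the NEMO knockouts, 10.49, 10.26 and 10.54 on the KEAP1 knockouts and 10.59, 10.79 and 10.45 on the double knockouts. For both genes the array labelled liver control 3 was above the mean of every knockout group. Stard4 was at 7.75, 7.81 and 7.41 on the controls and between 7.19 and 7.59 on all 9 knockout arrays, so that the array labelled liver control 3 again lay among the knockouts. Insig1 lay between 10.35 and 11.13 and Insig2 between 10.38 and 11.16 over the 12 liver arrays, with the highest Insig1 value on a NEMO knockout and the highest Insig2 value on a double knockout. The other genes named in hepatocytes, Mvk, Cyp51 and Hsd17b7, lay between 5.96 and 6.81, 9.12 and 9.68, and 8.84 and 9.41 in liver, with the array labelled liver control 3 the highest of the liver controls for each.

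The liver values turned on the array labelled liver control 3. It had Hmgcs1 at 10.81, against 10.15 and 10.12 on liver controls 1 and 2, Lss at 8.62 against 7.99 and 7.87, and Nsdhl at 10.06 against 9.09 and 9.52. On the enzyme mean it was at 0.17, against -0.19 and -0.08, so that the controls spanned most of the range of the liver arrays. The NEMO knockout livers were at 0.03, 0.22 and 0.19, the KEAP1 knockouts at -0.01, -0.14 and -0.08, and the double knockouts at 0.05, 0.13 and -0.17.

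Without the 4 arrays in doubt, NEMO knockout liver had 10 genes higher and 0 lower, with 12% of all genes called. Hmgcs1 rose by 0.70 ± 0.09 (adjusted p = 0.00078), Lss by 0.68 ± 0.16 (adjusted p = 0.0173), Fdft1 by 0.63 ± 0.11 (adjusted p = 0.00266), Npc1 by 0.61 ± 0.10 (adjusted p = 0.002) and Nsdhl by 0.54 ± 0.11 (adjusted p = 0.00839). Tmem97, by the same uncertain probe set, Idi1, Dhcr7, Msmo1 and Cyp51 rose by 0.33 to 0.47. The array left out here was doubted for its NRF2 targets, and the control group then held 2 arrays. With the array labelled liver control 3 alone left out 7 genes were called with 7.49% of all genes, and without each other array of these groups 0 were called, Npc1 included, with 0.122% to 0.744% of all genes.

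KEAP1 knockout liver without those arrays had 1 gene higher, Nsdhl at 0.47 ± 0.11 (adjusted p = 0.032), and 2 lower, Scap at -0.54 ± 0.12 (adjusted p = 0.0237) and Fdps at -0.46 ± 0.11 (adjusted p = 0.0291), with 5.26% of all genes called. With all arrays Fdps was at 8.74, 8.66 and 8.66 on the controls and 8.28, 8.21 and 8.23 on the KEAP1 knockouts, groups apart by more than their spread (-0.44 ± 0.10, adjusted p = 0.533 over all genes, where 0 were called). Double knockout liver without those arrays had 6 genes higher (Nsdhl, Hmgcs1, Fdft1, Insig2, Cyp51 and Msmo1, by 0.43 to 0.65) and Scap lower by 0.51 ± 0.13 (adjusted p = 0.0327), with 9.2% of all genes called. Scap was at 8.62, 8.91 and 8.48 on the liver controls and 8.23, 8.28 and 7.94 on the double knockouts. Leaving out the array labelled liver control 3 alone gave 7 called genes with 11.7% of all genes called, and the replicate block, for which all same-number residuals of these groups correlated above 0.1, gave 1, Scap (lower, adjusted p = 0.0241), with 4.25% of all genes called. A further probe set of Scap, at a mean of 3.67, had a double knockout liver difference of 0.09 in place of -0.52. In KEAP1 knockout liver its difference was 0.10 in place of -0.45, both with all arrays.

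**Figure D4:**
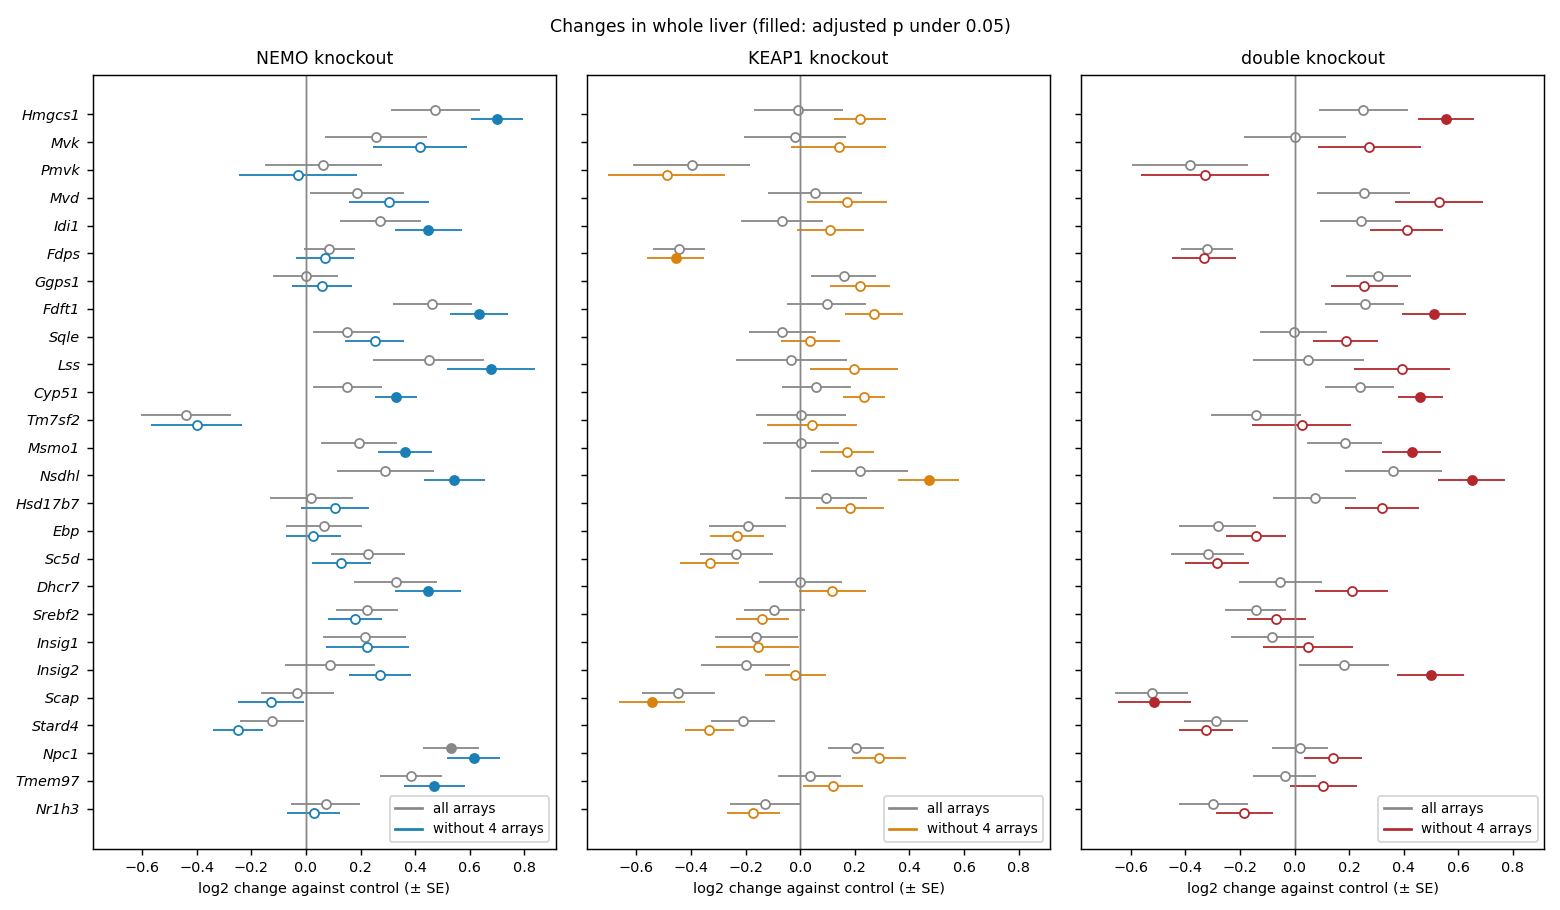
Log2 change against control with its standard error (horizontal axes) of the 26 genes (vertical axis) in NEMO, KEAP1 and double knockout liver, with all arrays in grey and without the 4 arrays in doubt in colour, and filled points where the adjusted p was under 0.05. In the NEMO knockout 1 point is filled with all arrays and 10 without the arrays in doubt.

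Markers of other cells differed between the liver groups as well. The stellate cell list (7 of 7 genes measured) had a mean of 5.73, 5.95 and, for the array labelled liver control 3, 7.14 among the liver controls, 7.35 to 8.04 on the NEMO knockouts, 6.39 to 6.89 on the KEAP1 knockouts and 7.10 to 8.46 on the double knockouts. The macrophage list was at 7.29, 7.18 and 8.40 on the controls in that order, 8.17 to 8.37 on the NEMO knockouts, 7.51 to 8.15 on the KEAP1 knockouts and 8.37 to 8.56 on the double knockouts. The proliferation list was at 4.09, 4.14 and 5.75 on the controls, 6.07 to 7.37 on the NEMO knockouts, 4.42 to 4.83 on the KEAP1 knockouts and 5.69 to 6.19 on the double knockouts. On these 3 lists the array labelled liver control 3 lay above the other controls and above all KEAP1 knockouts. The endothelial list was between 7.18 and 8.05 on the controls and between 7.58 and 8.08 on the knockouts. With all arrays 1 of 3 proliferation genes was called higher in NEMO knockout liver and 0 of 19 genes of the other 3 lists in any knockout liver. With the 4 arrays in doubt left out, 6, 1 and 6 of 7 macrophage genes, 6, 4 and 5 of 7 stellate cell genes, 1, 3 and 4 of 5 endothelial genes and 3, 0 and 3 of 3 proliferation genes were called higher in the NEMO, KEAP1 and double knockouts. The share of all genes called was 1.33%, 0% and 0.00531% with all arrays, and 12%, 5.26% and 9.2% without those in doubt. The part of these cells in the liver changes was not tested.

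The genes of fatty acid synthesis were counted in liver too. Of the 13, 4 were lower in the double knockout than in the NEMO knockout with all arrays, with Fads1 at -1.37 ± 0.27 (adjusted p = 0.0347), Fads2 at -1.07 ± 0.15 (adjusted p = 0.0108), Elovl6 at -1.02 ± 0.15 (adjusted p = 0.0113) and Elovl5 at -0.90 ± 0.19 (adjusted p = 0.0462). That comparison had 1.05% of all genes called. Without the arrays in doubt 6 were lower in that comparison, 6 were lower in KEAP1 knockout liver and 5 in double knockout liver, both against control, while 1 was higher and 1 lower in NEMO knockout liver. The share of all genes called was then 3.46%, 5.26%, 9.2% and 12% in the same order. Cyp7b1, an oxysterol hydroxylase, fell by 2.37 ± 0.35 in NEMO knockout liver (adjusted p = 0.0113), the 1 gene called of 7 in the list of oxysterol and bile acid synthesis.

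Last, the change in liver was tested against the change in hepatocytes, over all 24 arrays. For each knockout 0 of 26 genes were called, with 0.0691%, 0% and 0.0691% of all genes called for the NEMO, KEAP1 and double knockouts. Without the arrays in doubt 0 were called again (0.0638%, 0.0106% and 0.00531% of all genes). At an unadjusted p under 0.05, 13, 13 and 14 genes had a higher change in liver than in hepatocytes and 0 a lower one. These were 50%, 50% and 53.8% of the 26, against 9.46%, 5.67% and 7.59% of all genes, with median differences of 0.50, 0.48 and 0.39. The same control arrays of both sample types enter the test of each knockout, so these counts are not independent of each other. Control hepatocytes already lay above control liver for 24 of the 26 genes and below for 2, with a median difference of 0.43. The part of that control difference in these counts was not tested. Idi1 differed by 0.75 ± 0.19 for the NEMO knockout (adjusted p = 0.168) and Stard4 by 0.84 ± 0.18 for the double knockout (adjusted p = 0.0977). Srebf2 differed by 0.63 ± 0.17 and 0.57 ± 0.17 for the NEMO and KEAP1 knockouts (adjusted p = 0.203 and 0.688). It was at 7.40, 7.42 and 7.28 on the liver controls, 7.54, 7.66 and 7.58 on the liver NEMO knockouts, 7.33, 7.15 and 7.35 on the KEAP1 knockouts and 7.39, 7.30 and 6.99 on the double knockouts.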

How the data were processed

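Arrays hybridised with RNA of 24 samples were used. The authors deposited log2 values, and the submitters' processing notes name RMA. Its version, its options and any batch were not stated in the sources used here. Of 35556 probe sets, the platform annotation gave 21218 a single symbol, 1881 several and 12457 none. The brightest of a gene's single-symbol probe sets was kept, giving 18820 genes, with no filter on low values.

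Each change was estimated by lmFit and tested by eBayes with an intensity trend (limma 3.58.1, R 4.3.3), two-sided, with Benjamini-Hochberg adjustment over the 18820 genes in each of 16 comparisons. Fits within liver or hepatocytes used 12 arrays, and fits across both used 24. The script was tested on simulated data. The members and lists were chosen with earlier results of these data known, and the 4 arrays in doubt were known from them. Named were all called members of a comparison, up to 12, or else the 3 with the smallest p, and called genes of other lists, up to 4 a list. Values on each array were given for Srebf2, Insig1, Insig2 and the members most often called.

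Alternatives were the 4 arrays left out, the replicate number as a block, only the groups compared in the fit, the mean of a gene's probe sets, a mean log2 of at least 5, quantile normalization and each array left out. Residuals of same-number liver controls and double knockouts correlated at 0.115, 0.136 and 0.23, above 0.1, so the blocked fit is given beside that comparison; the 3 residuals of a group sum to 0 and are not independent. Arrays have no read depth, and the number of arrays, 3 in a group, limits the precision. Promoter windows came from RefSeq (GRCm38.p6).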

Additional observations from a re-analysis of the deposited data

Results flagged for a closer look

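In liver the interaction of NEMO and KEAP1 loss was called for Npc1 without the 4 arrays in doubt, which is why it is listed here. With all arrays it was not called, nor with any 1 array left out. Without the 4 arrays in doubt its interaction was -0.76 ± 0.14 (limma, adjusted p = 0.0451), meaning that the double knockout lay below the sum of both single changes. With all arrays it was -0.71 ± 0.14 (adjusted p = 0.28), and with 1 array left out the adjusted p ranged from 0.0722 to 0.662.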

How the results depend on the processing

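Counts are of 26 genes. Without the 4 arrays in doubt, called genes in liver went from 1 to 10 (NEMO knockout against control), from 0 to 3 (KEAP1), from 0 to 7 (double) and from 0 to 1 (interaction). The share of all genes called went from 1.33% to 12%, 0% to 5.26%, 0.00531% to 9.2% and 0.0106% to 0.345% in the same order. In hepatocytes the counts went from 8 to 5 (double, 9.72% to 9.23% of all genes) and from 1 to 0 (double against NEMO, 3.32% to 3.8%). With the replicate number as a block, liver counts were 1 (double, 4.25% of all genes called) and 3 (double against NEMO, 1.7%). Hepatocyte counts were 13 (KEAP1, 1.96%), 16 (double, 9.78%) and 3 (double against NEMO, 3.41%). They were 11 for control hepatocytes against control liver (6.63%) and 1 for double, liver minus hepatocytes (0.191%). The numbers were not shown to pair the arrays in any comparison. Only for double knockout liver against control did all same-number residuals correlate above 0.1. With only the groups compared in the fit, counts were 0 for NEMO knockout liver, 0 for double against NEMO in liver, 2 for NEMO and 3 for KEAP1 knockout hepatocytes, and 0 for control hepatocytes against liver. With a mean log2 of at least 5, double against NEMO gave 2 in liver and 3 in hepatocytes, and quantile normalization gave 3 in hepatocytes. Shares of all genes are not given here for the groups compared, the mean log2 or quantile settings, so those counts cannot be set against them. The cause was not tested. With 1 array left out, counts ranged from 0 to 7 for NEMO knockout liver, 0 to 1 for KEAP1, 0 to 7 for double and 0 to 1 for double against NEMO. The shares of all genes called ranged from 0.122% to 7.49%, 0% to 2.64%, 0% to 11.7% and 0.085% to 0.93% in the same order. Against control, the highest count and the highest share both came without the array labelled liver control 3. In hepatocytes the counts ranged from 1 to 7 (NEMO), 1 to 12 (KEAP1), 6 to 14 (double) and 0 to 0 (double against NEMO). The shares there ranged from 4.29% to 6.35%, 0.654% to 2.15%, 5.54% to 10.3% and 1.56% to 2.82%. Counts ranged from 1 to 11 for control hepatocytes against liver, 0 to 1 for NEMO and 0 to 2 for double, liver minus hepatocytes. The shares for these were 3.39% to 5.12%, 0% to 0.25% and 0% to 0.335%. Nsdhl in KEAP1 knockout liver went from 0.22 to -0.014 without liver control 1 (adjusted p = 0.996) and to 0.47 without the array labelled liver control 3. The probe set mean kept all 16 counts within 1.5 times. Tmem97 had probe sets at 9.36 and 7.23, with opposite signs in NEMO knockout hepatocytes, and Scap at 8.54 and 3.67, and Fdft1 had 2 more shared with Ctsb that were not used.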
